A study of Saccharum hybrid cultivar with 68 samples.

Results

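The microRNA miR528 of sugarcane (Saccharum hybrid cultivar) was represented by 2 entries of the small RNA table, miR528-x and miR528-y, chosen by their names out of 844 entries. They were followed in 24 small RNA libraries, together with the 6 assembled transcripts (unigenes) that the degradome table pairs with miR528-x, out of 100182 unigenes counted in 36 mRNA libraries. The samples were stem and leaf of the genotypes ROC22 and GT86-887, which the series describes as contrasting in sucrose content. Small RNA was sequenced at the late and the early stage of sucrose accumulation, with 3 libraries for each of 8 groups: ROC22 stem late, ROC22 stem early, ROC22 leaf late, ROC22 leaf early, and the same 4 of GT86-887. The mRNA was sequenced at the early, middle and late stages, with 3 libraries for each of 12 groups. No treatment, transgene or edited allele is named in the labels for any group, and plant age is not given beyond the stage. Nothing in the labels states that replicate libraries were made from different plants, so the p-values describe the scatter of these libraries only, part or all of which may be technical.

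MiR528 is a microRNA of grasses and some other monocots and belongs to the copper microRNAs, which are known to accumulate when copper is scarce and to lower transcripts of copper-containing proteins. In rice it is known to cut the transcript of an L-ascorbate oxidase, and in maize those of laccases, copper enzymes that oxidise phenolic compounds and take part in lignin formation. In Arabidopsis, which has no miR528, the copper-responsive transcription factor SPL7 is known to switch on miR397, miR398 and miR408, whose targets include laccases, copper/zinc superoxide dismutases and plantacyanin.

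The deposited sequences of both entries are shown because they identify the entries and set what each could match. That of miR408-y is shown because it shares letters with miR528-y and because its level had the highest correlation with that of miR528-x over all 24 libraries, though not over the 12 leaf libraries alone. Each is written 5′ to 3′ with bases 2 to 8, the seed, in capitals.
miR528-x: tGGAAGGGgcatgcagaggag
miR528-y: cCTGTGCCtgcctcttccatt
miR408-y: cTGCACTGcctcttccctggc
MiR528-x carries the sequence known in grasses as the active strand of miR528, and miR528-y reads as the opposite strand of its precursor duplex. With an overhang of 2 bases, the entries faced each other over 19 positions, of which 16 were Watson-Crick pairs and 1 was a G:T pair. No other entry of the table lay within 2 edits of either sequence, so a near-identical entry that could share its reads was not listed. The nearest entries, miR4393-z to miR528-x and miR164-y to miR528-y, were 6 edits away. No other entry had the seed of miR528-x, and 1 had that of miR528-y. MiR528-y and miR408-y, by contrast, shared the run ctgcctcttcc of 11 bases, held by 3 of the 844 entries (0.355%), miR408-y, miR408-z and miR528-y.

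Library totals ranged from 183654 to 1374497 counts in the 12 stem and from 640674 to 1632186 in the 12 leaf small RNA libraries. Levels are given in CPM, the count relative to the library total. One entry, miR166-y, held 1.27% to 5.04% of the counts in stem and 51.5% to 70.8% in leaf. The tissue labels could not be checked against marker genes, because the files pair the unigenes with no gene names.

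MiR528-x was among the most abundant small RNAs of the leaf and was held at a high level at the late stage in ROC22 but not in GT86-887. In late leaf, the ROC22 libraries had 23791, 63794 and 26934 CPM, against 1074, 714 and 1200 CPM in the GT86-887 libraries. In early leaf, the ROC22 libraries had 125674, 47317 and 91930 CPM, against 26476, 38841 and 33680 CPM in the GT86-887 libraries. The genotypes did not overlap at either stage. In ROC22 leaf the stages overlapped, through early replicate 2 and late replicate 2, whereas in GT86-887 leaf the highest late library lay far below the lowest early one. By rank of counts, miR528-x was the 2nd or 3rd entry of ROC22 early leaf libraries and between the 3rd and 6th of ROC22 late ones. It ranked between the 20th and 25th in GT86-887 late leaf and was the 5th or 6th in GT86-887 early leaf. As a share of counts it reached 12.6% in ROC22 early leaf replicate 1 (95% Clopper-Pearson interval 12.5% to 12.6%) and was lowest in leaf at 0.0714% in GT86-887 late leaf replicate 2 (0.0652% to 0.0780%). Such intervals cover counting error only, since reads are not counted molecules.

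In late leaf the mean was 38173 ± 22244 CPM in ROC22 and 996 ± 253 CPM in GT86-887, and in early leaf 88307 ± 39304 CPM in ROC22 and 32999 ± 6210 CPM in GT86-887 (SD, n = 3 libraries each). The quasi-likelihood test of edgeR, with Benjamini-Hochberg adjustment over the 180 entries tested in leaf, called a difference at adjusted p below 0.05. In late leaf, miR528-x was higher in ROC22 by 5.45 ± 0.49 on the log2 scale (SE, adjusted p = 1.37e-07), where 32.2% of all tested entries passed. In early leaf it was higher in ROC22 by 1.501 ± 0.41 (adjusted p = 0.0142), where 17.2% passed. That early call was lost without ROC22 early leaf replicate 1 (1.38, adjusted p = 0.0623) and without GT86-887 early leaf replicate 1 (1.46, adjusted p = 0.0763), and the adjusted p ranged from 0.000773 to 0.0763 over the 12 fits that each left out 1 library. As these are whole organs, fewer cells of a type and less RNA per cell cannot be told apart.

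Between stages, miR528-x in GT86-887 leaf fell by 4.98 ± 0.48 on the log2 scale (late minus early, adjusted p = 1.06e-07), where 28.9% of entries passed. In ROC22 leaf the late minus early difference was -1.03 ± 0.41 and did not pass (adjusted p = 0.0920), where 14.4% passed. This ROC22 value was the least settled of the miR528-x results in leaf. It passed without ROC22 late leaf replicate 2 (-1.83, adjusted p = 0.00274), without ROC22 early leaf replicate 2 (-1.86, adjusted p = 0.00258), without GT86-887 late leaf replicate 2 (-1.24, adjusted p = 0.0493) and without GT86-887 early leaf replicate 3 (-1.30, adjusted p = 0.0488). With DESeq2 it also passed (-1.20, adjusted p = 0.0237), and over all alternatives it stayed below 0. The stage difference in ROC22 minus that in GT86-887, tested as an interaction, was 3.95 ± 0.59 (adjusted p = 0.000184). It passed in each of the 12 fits without 1 library, with values from 2.86 to 3.96, and 6.11% of all tested entries passed.

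**Figure D1:**
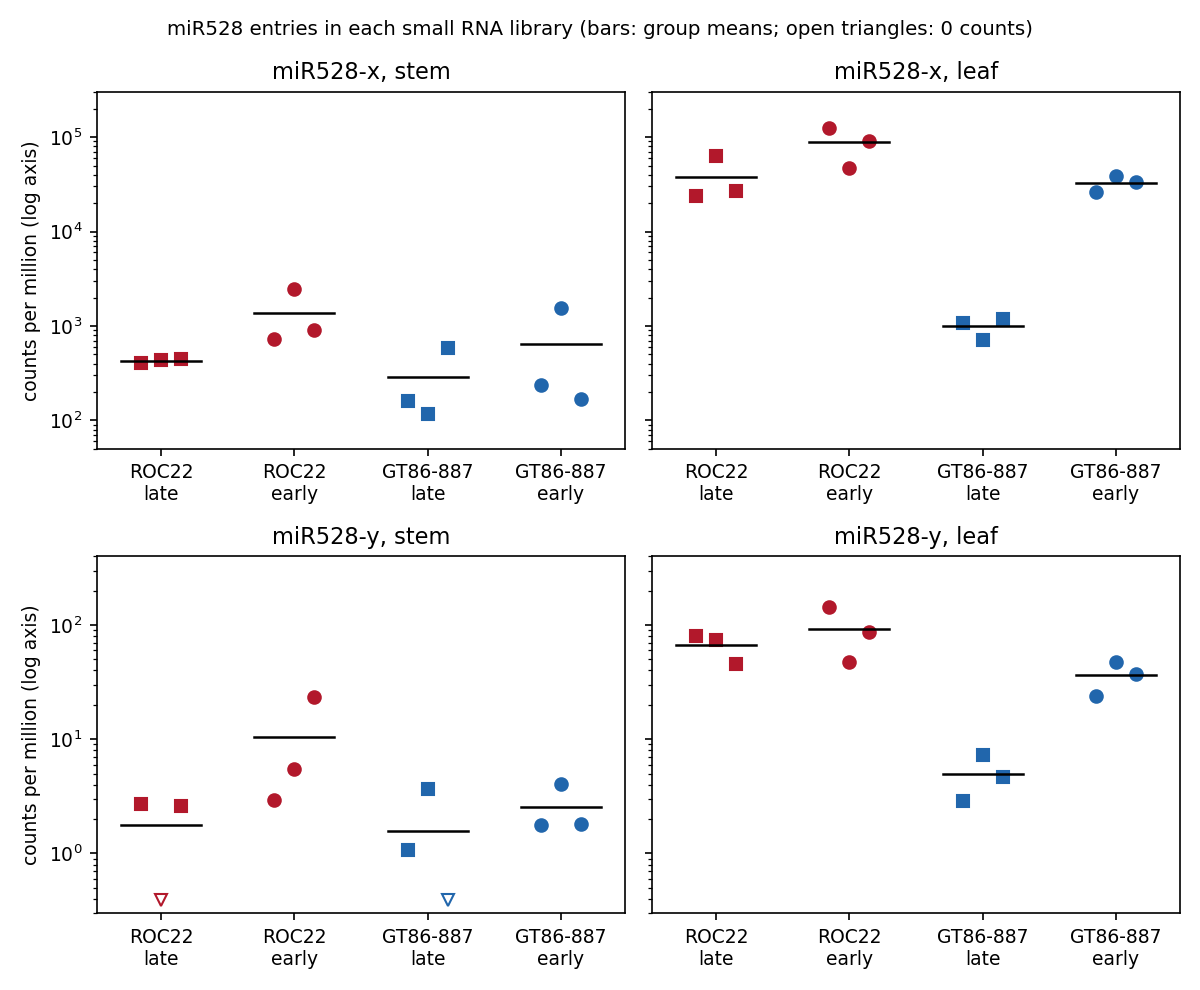
Level of miR528-x (upper panels) and miR528-y (lower panels) in each of the 24 small RNA libraries, in CPM on log axes, for stem (left) and leaf (right). Points are libraries, bars are group means and open triangles are libraries with 0 counts. The 3 GT86-887 late leaf libraries lie at 714 to 1200 CPM of miR528-x, below the 9 other leaf libraries, which start at 23791 CPM.

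The leaf differences of miR528-y had the same signs as those of miR528-x, from far fewer counts. Their sizes differed, with late minus early in GT86-887 leaf at -2.84 for miR528-y and -4.98 for miR528-x on the log2 scale. In late leaf, ROC22 libraries had 56, 69 and 52 counts, against 2, 5 and 3 counts in GT86-887 libraries. In early leaf, ROC22 libraries had 203, 51 and 116 counts, against 19, 78 and 29 counts in GT86-887 libraries. The genotypes did not overlap in late leaf. In early leaf replicate 2 of ROC22 and replicate 2 of GT86-887 lay level, at 47.7 and 47.8 CPM. In CPM, the mean was 66.3 ± 18.7 in ROC22 and 4.97 ± 2.24 in GT86-887 at the late stage, and 93.2 ± 48.4 in ROC22 and 36.4 ± 11.9 in GT86-887 at the early stage (SD, n = 3 each).

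MiR528-y was higher in ROC22 by 3.86 ± 0.52 in late leaf (log2, adjusted p = 1.83e-05) and by 1.39 ± 0.40 in early leaf (adjusted p = 0.0208). In GT86-887 leaf it fell by 2.84 ± 0.53 between stages (adjusted p = 0.000345), and the late minus early value in ROC22 leaf was -0.37 ± 0.39 (adjusted p = 0.604). With 2 to 5 counts, 2 of the GT86-887 late leaf libraries lay at or under the limit that a count of 0 allows (3 counts), so the size of these late differences depends on how low counts are handled. The genotype by stage value of miR528-y was 2.47 ± 0.66 (adjusted p = 0.0233), but it did not pass in any of the 12 fits without 1 library, with values from 1.45 to 2.70 and adjusted p from 0.103 to 0.433. The early leaf call was lost without replicate 1 or replicate 3 of either genotype, with values of 1.16 and 1.63 without those of ROC22 and 1.29 and 1.39 without those of GT86-887, and adjusted p from 0.0774 to 0.160.

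In stem both entries were low and no comparison passed. In late stem, miR528-x had 407, 438 and 446 CPM in ROC22 libraries, against 160, 117 and 579 CPM in GT86-887 libraries. In early stem it had 720, 2472 and 910 CPM in ROC22 libraries, against 236, 1533 and 167 CPM in GT86-887 libraries. The genotypes overlapped at both stages. The highest stem values, in replicate 2 of early ROC22 and of early GT86-887, came from the libraries with the lowest totals, 183654 and 245931 counts. Those libraries also had 36106 and 50417 CPM of miR166-y, against 12732 to 40418 CPM in the 10 other stem libraries, a range that holds the first value. This depended on the scaling. With TMM-scaled CPM, the same libraries had 10718, the lowest of all stem libraries, and 20235. ROC22 late stem replicates 1 and 2 then had the highest miR166-y, 44224 and 42809. Whether depth or RNA of leaf origin played a part in the stem values of miR528-x was not tested.

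By edgeR over the 215 entries tested in stem, miR528-x differed between ROC22 and GT86-887 by 0.31 ± 0.58 at the late stage (log2, adjusted p = 0.715), where 30.7% of entries passed. At the early stage it differed by 0.62 ± 0.59 (adjusted p = 0.498), where 17.7% passed. Late minus early was -0.61 ± 0.58 in ROC22 stem (adjusted p = 0.535), where 6.98% passed, and -0.30 ± 0.59 in GT86-887 stem (adjusted p = 0.865). The genotype by stage value in stem was -0.31 ± 0.83 (adjusted p = 0.815). For the last 2 comparisons no entry at all passed in edgeR (0%), with 27 of 215 entries at an unadjusted p below 0.05 for GT86-887 stages and 35 for genotype by stage. MiR528-y had 0 to 8 counts in a stem library, 22 in all 12 together, and fell under the count filter of the stem fit. It had 0 counts in ROC22 late stem replicate 2 and GT86-887 late stem replicate 3, which allows up to 4.19 and 6.87 CPM.

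Across tissues, miR528-x averaged 682 ± 690 CPM in stem and 40119 ± 37993 CPM in leaf (SD, n = 12 each), and miR528-y 4.11 ± 6.24 CPM in stem and 50.2 ± 41.2 CPM in leaf. In a fit of all 24 libraries with 285 entries tested, both entries were lower in stem, with a log2 difference, stem minus leaf, of -6.40 ± 0.35 for miR528-x (adjusted p = 1.16e-17) and -4.48 ± 0.40 for miR528-y (adjusted p = 5.07e-12). In this comparison 71.9% of all tested entries passed and the median entry stood at 0.61, so both lay far from the median. With library totals in place of the TMM scaling, the median was 1.82 and miR528-x stood at -4.996.

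The genotype difference of miR528-x in stem was smaller than that in leaf, by a difference of -2.81 ± 0.56 (adjusted p = 0.000643), where 10.2% of entries passed. For miR528-y the same value was -2.11 ± 0.92 and did not pass (adjusted p = 0.1505), though it did without ROC22 early stem replicate 3, the library with 8 of its 22 stem counts (-2.99, adjusted p = 0.0436). Late minus early in stem minus that in leaf was 2.82 ± 0.56 for miR528-x (adjusted p = 0.000847), where 17.5% passed, but it did not pass with library totals alone (1.71, adjusted p = 0.110). For miR528-y it was 1.24 ± 0.92 (adjusted p = 0.437).

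In order of their mean CPM of miR528-x, the groups were ROC22 leaf early, ROC22 leaf late, GT86-887 leaf early, ROC22 stem early, GT86-887 leaf late, GT86-887 stem early, ROC22 stem late and GT86-887 stem late. Neighbours in this order overlapped in their libraries except GT86-887 leaf early, which began at 26476 CPM, and ROC22 stem early, which ended at 2472 CPM. On this scale GT86-887 late leaf thus lay within the range of the stem libraries. That overlap depended on the scaling, because with TMM-scaled CPM the GT86-887 late leaf libraries lay at 1135 to 1646 and the 12 stem libraries at 132 to 734.

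The ratio of miR528-x to miR528-y within a library does not depend on how libraries are scaled. Summed over a group, 607 counts of miR528-x stood against 1 of miR528-y in ROC22 late leaf and 944 in ROC22 early leaf. The sums were 200 to 1 in GT86-887 late leaf and 876 to 1 in GT86-887 early leaf. As log2 of the counts with 0.5 added to each, the ratio was 8.27 ± 1.15 in late and 9.87 ± 0.16 in early leaf libraries (SD, n = 6 each), and the late minus early difference of -1.60 passed an exact permutation test (p = 0.00433, adjusted p = 0.0108 over 5 comparisons, two-sided). The smallest p this test can give is 0.00216. The late libraries ranged from 6.47 to 9.75 and the early ones from 9.66 to 10.06, with 1 late library, ROC22 late leaf replicate 2, inside the early range.

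Between genotypes in leaf, the log2 ratio was 9.48 ± 0.69 in ROC22 and 8.66 ± 1.42 in GT86-887, and the difference of 0.82 did not pass the exact permutation test (p = 0.260, adjusted p = 0.433, n = 6 each). Stem libraries had a log2 ratio of 7.06 ± 1.38 and leaf libraries 9.07 ± 1.14, a difference of -2.01 (permutation test with 100000 resamples, p = 0.00114, adjusted p = 0.00570, n = 12 each). In stem the ratio rested on 0 to 8 counts of miR528-y, and with 0.5 added it cannot exceed a level set by miR528-x itself. Neither stem comparison passed by the exact test, with 0.50 for ROC22 minus GT86-887 and 0.39 for late minus early (adjusted p = 0.636 for both).

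**Figure D2:**
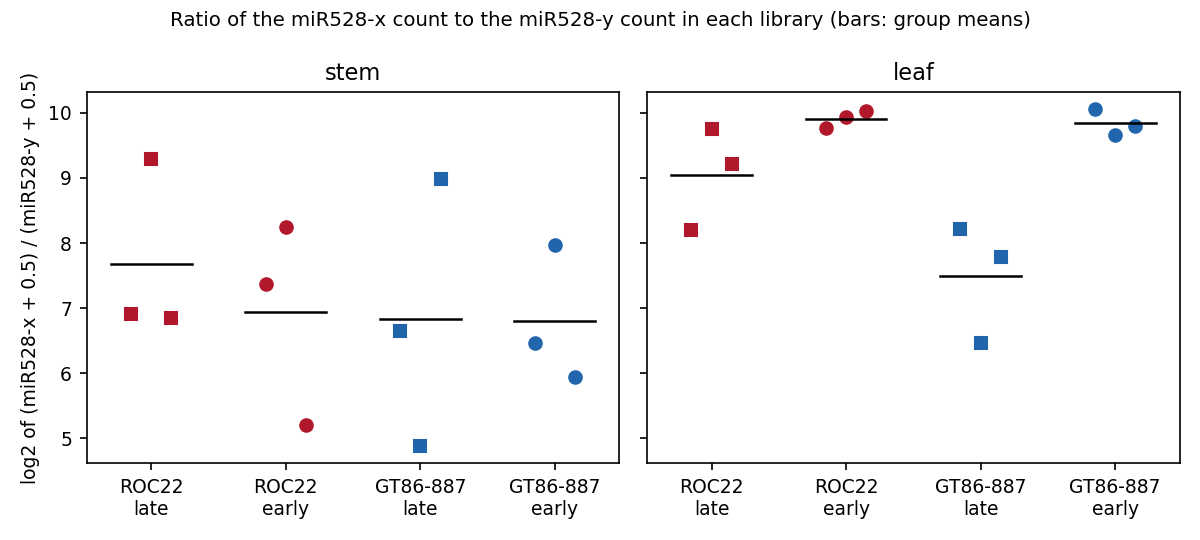
Log2 of the ratio of the miR528-x count to the miR528-y count, with 0.5 added to each, in every stem (left) and leaf (right) small RNA library. Points are libraries and bars are group means. The 6 early leaf libraries lie between 9.66 and 10.06, while the 3 GT86-887 late leaf libraries lie between 6.47 and 8.21.

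The other copper microRNAs moved with miR528 in late leaf. The table held 9 further entries of miR397, miR398 and miR408 and none of miR857, and 8 of them passed the count filter in leaf. In late leaf all 8 were higher in ROC22, where 17.8% of all tested entries were, with a median log2 difference of 3.22 against 0.14 over all 180 entries. The 4 most abundant were miR397-y, with 3.66 ± 0.51 (adjusted p = 1.97e-05), miR408-y, with 4.28 ± 0.51 (adjusted p = 4.29e-06), miR398-y, with 3.76 ± 0.52 (adjusted p = 1.90e-05), and miR408-x, with 2.57 ± 0.55 (adjusted p = 0.00128). The miR528-x value of 5.45 lay above each of the 8, but miR408-z came close, with 5.24 ± 1.17 (adjusted p = 0.00163). Whether these values differ was not tested.

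At the early stage both miR528 entries were higher in ROC22 leaf. None of the 8 list entries was higher there and 2 were lower, miR398-x (-1.76 ± 0.40, adjusted p = 0.00439) and miR408-x (-1.55 ± 0.51, adjusted p = 0.0420), with a median of -0.50 against -0.02 over all entries, of which 8.89% were lower. These 2 calls were unsteady, with 1 or 0 left in 12 of the alternative fits. The 6 others had values from -0.58 to 0.72, of which miR397-x (0.32) and miR397-z (0.72) lay above 0. Without ROC22 early leaf replicate 2, miR397-z was higher in ROC22 (1.48, adjusted p = 0.0195) and none of the list was lower. Whether miR528 and the list differ was not tested as such. Between stages, all 8 fell in GT86-887 leaf (12.2% of all entries fell), with a median of -5.04 against -0.20 over all entries, and miR528-x, at -4.98, was close to that median. In ROC22 leaf the 3 miR397 entries fell (5% of all entries), with miR397-y at -1.56 ± 0.47 (adjusted p = 0.0317), and the 5 others did not pass. This split turned on single libraries, with 2 to 6 of the 8 lower in the 12 fits without 1 library. It was 6 without ROC22 early leaf replicate 2, and the miR397-y call was lost without ROC22 early leaf replicate 1 (-1.53), early replicate 3 (-1.91) or late replicate 1 (-1.48), with adjusted p from 0.0738 to 0.127. The genotype by stage value passed for 7 of the 8, all above 0, with a median of 4.04 against 0.12. In the 12 fits without 1 library it passed for 4 to 6 of them, with 4 without GT86-887 late leaf replicate 3.

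**Figure D3:**
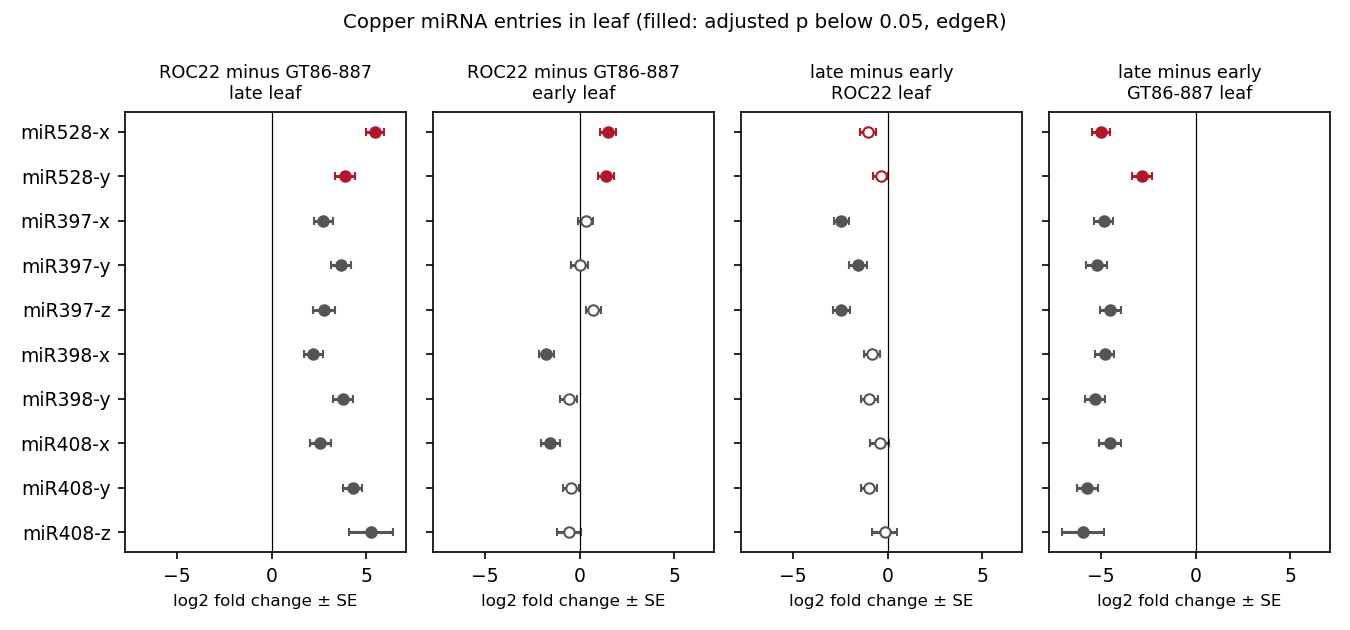
Log2 fold change (± SE) of the 2 miR528 entries (red) and 8 other copper microRNA entries (grey) in 4 leaf comparisons of the edgeR fit, with filled points for adjusted p below 0.05. In late leaf all 10 entries lie above 0 in ROC22 minus GT86-887, and in early leaf only the miR528 entries pass above 0.

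In stem, 6 entries of the list were tested and the one call was miR398-x, which in ROC22 stem fell by 3.85 ± 0.90 between stages (adjusted p = 0.0159), where 2.79% of entries passed as lower. That call was lost without ROC22 stem early replicate 1 (-3.86) or 2 (-3.28) or late replicate 1 (-3.37) or 2 (-3.36), with adjusted p from 0.0543 to 0.108. The other 4 stem comparisons had no call of the list in edgeR, with 1 unadjusted p below 0.05 for the genotypes at the late stage, 1 for genotype by stage and 0 for the 2 others, and DESeq2 made 0 calls in each. Without 1 library, 3 of these 4 gained a call: miR398-x passed as lower in ROC22 late stem (-4.29, adjusted p = 0.00121) and for genotype by stage (-5.82, adjusted p = 0.00398) without ROC22 late stem replicate 3, and the second of these also with no filter on low counts (-3.11, adjusted p = 0.0233). MiR408-x passed as lower in ROC22 late stem without GT86-887 late stem replicate 2 (-1.86, adjusted p = 0.0318), and miR398-y as higher in ROC22 early stem without GT86-887 early stem replicate 2 (2.39, adjusted p = 0.0443). Stem minus leaf, 7 of 8 entries were lower in stem (30.5% of all entries), with a median of -4.31 against 0.61. The exception was miR398-x, at 0.09 ± 0.35 (adjusted p = 0.853), or 1.55 with library totals alone (adjusted p = 0.00291), where the median entry stood at 1.82.

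By Pearson correlation of log2(TMM-scaled CPM + 1) over all 24 libraries, the 5 entries most like miR528-x, among 284, were miR408-y (r = 0.967), miR397-y (0.952), miR397-z (0.945), a predicted entry without a miR number (0.942) and miR528-y (0.942). Over the 12 leaf libraries alone, among 278, they were miR393-z (0.969), miR528-y (0.954), miR408-y (0.947), the same predicted entry (0.947) and miR393-x (0.943). The predicted entry, tTGAGTGCagcgttgatgagc, has the seed of miR397-x and miR397-z, and miR393 is known in Arabidopsis to target transcripts of auxin receptors. The sequence of the predicted entry differs from that of miR397-z only in the last base. It was outside the list of other copper entries, which was chosen by name. In leaf it averaged 24939 ± 27188 CPM, against 5628 ± 5374 CPM for miR397-y (SD, n = 12 each). In early leaf the predicted entry had 23808 to 89715 CPM in ROC22 and 27408 to 47673 CPM in GT86-887 libraries, with overlap. There miR393-x, like miR528-x, was higher in ROC22 without overlap, at 3303 to 5948 CPM against 1605 to 1986 CPM. The miR393-z libraries overlapped, at 129 to 259 CPM in ROC22 and 103 to 145 CPM in GT86-887. These correlations are descriptions. The libraries share groups, tissues and scaling factors, and over 24 libraries the gap between tissues enters every one of them.

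Degradome sequencing reads RNA pieces from their exposed 5′ end, among them the downstream pieces that remain once a microRNA has guided a cut. The deposited table held 871 pairs of a microRNA entry and a unigene, 6 of them with miR528-x and 0 with miR528-y. With 1 library for each genotype, tissue and title code there is no replicate check. All 871 pairs together held 2644 to 3033 tags in a leaf library and 2070 to 2990 in a stem library. The 6 pairs of miR528-x held 23 tags in the 8 libraries, 22 in leaf and 1 in stem. The ROC22 leaf library with title code E held 15 of them, the GT86-887 leaf library with code E 5, the ROC22 leaf library with code L 2, the ROC22 stem library with code L 1, and the 4 other libraries none. All 6 pairs had tags in the ROC22 leaf library of code E, where 46.7% of all 871 pairs had tags. Of the 6 pairs, 1 had tags in the GT86-887 leaf library of code E (42.8% of all pairs). It was also 1 in the ROC22 leaf library of code L (39.5%) and 1 in the ROC22 stem library of code L (28.6%). The unigene c117993.graph_c0 had 3 tags in the ROC22 leaf library of code E and 5 in the GT86-887 leaf library of code E. In the ROC22 leaf library of code E, c126382.graph_c1 had 4 tags and c118531.graph_c0, c133172.graph_c0, c138226.graph_c3 and c138476.graph_c0 had 2 each. In the libraries of code L, c133172.graph_c0 had 2 tags in ROC22 leaf and c138476.graph_c0 had 1 in ROC22 stem. A pair of the whole table had a median of 4 tags over its libraries, so these numbers were ordinary in size. The files give no name, sequence, cleavage site or score for these pairs, so which copper proteins, if any, they encode is not known here, and c117993.graph_c0 was also paired with miR5229-z, with 2 tags in each leaf library of code E and 20 in the ROC22 leaf library of code L.

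The unigenes were read in mRNA libraries of 19241718 to 24929466 counts in stem (n = 18) and 17970015 to 24414986 in leaf (n = 18). Of these libraries, those labelled GT86-887 middle replicate 1 went against their labels in both tissues. In stem, 109 unigenes had at least 1 CPM in every early and late GT86-887 library and 0 counts in every early and late ROC22 library. The library labelled GT86-887 middle stem replicate 1 held counts of 39 of them, whereas replicates 2 and 3 held all 109. In leaf there were 156 such unigenes, of which the library labelled GT86-887 middle leaf replicate 1 held 59 and replicates 2 and 3 all 156. Of unigenes that marked ROC22 by the same rule, the library labelled GT86-887 middle stem replicate 1 held 39 of 68, against 3 and 4 in replicates 2 and 3, and the leaf one held 51 of 87, against 20 and 6. The 3 ROC22 middle libraries of each tissue held every ROC22-marking unigene, so these 2 libraries lay between the genotypes in both sets. The mapping was kept as labelled, and calls on the paired unigenes that change without these libraries are given both ways.

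Per length and in order of FPKM in leaf, c133172.graph_c0 was the highest of the 6, with 30.3 ± 7.78 FPKM in stem and 239 ± 74.4 FPKM in leaf (SD, n = 18 each). Next came c138476.graph_c0, with 25.8 ± 4.09 FPKM in stem and 20.8 ± 2.49 in leaf, and c138226.graph_c3, with 19.5 ± 2.70 FPKM in stem and 15.1 ± 2.15 in leaf. The levels of c118531.graph_c0 (14.7 ± 4.48 FPKM in stem, 13.1 ± 5.53 in leaf) and c126382.graph_c1 (9.83 ± 4.59 FPKM in stem, 11.6 ± 5.39 in leaf) overlapped those of c138476.graph_c0 and c138226.graph_c3. The lowest was c117993.graph_c0, with 0.0106 ± 0.0189 FPKM in stem and 0.712 ± 0.618 in leaf.

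The unigene c117993.graph_c0 was read mostly in leaf and was low there in late GT86-887. It had 9 counts in the 18 stem libraries together and 589 in the 18 leaf libraries. In early leaf it had 73, 40 and 57 counts in ROC22 libraries, against 11, 35 and 66 in GT86-887 libraries. In middle leaf it had 12, 9 and 8 counts in ROC22 libraries, against 18, 2 and 3 in GT86-887 libraries. In late leaf it had 82, 89 and 53 counts in ROC22 libraries, against 16, 9 and 6 in GT86-887 libraries, and only there did the genotypes not overlap.

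The late leaf difference of c117993.graph_c0, ROC22 minus GT86-887, was 2.65 ± 0.62 (log2, adjusted p = 0.00439 by edgeR over the 37678 unigenes tested in leaf). The same difference was 0.47 ± 0.56 in early leaf (adjusted p = 0.556). Late minus early was 0.29 ± 0.55 in ROC22 leaf (adjusted p = 0.745) and -1.89 ± 0.63 in GT86-887 leaf (adjusted p = 0.0365). That last call was lost without early replicate 2 (-1.95), early replicate 3 (-1.21), late replicate 2 (-1.76) or late replicate 3 (-1.64) of GT86-887 leaf, with adjusted p from 0.0672 to 0.228. The genotype by stage value of 2.19 ± 0.83 did not pass (adjusted p = 0.263), and without the library labelled GT86-887 middle leaf replicate 1 it was 2.19 ± 0.67 (adjusted p = 0.0902). With no filter on low counts it passed (2.19 ± 0.61, adjusted p = 0.0209). Stem minus leaf was -5.75 ± 0.44 (adjusted p = 1.53e-12). As a count ratio with its 95% counting interval, leaf exceeded stem 69.5-fold (36.3 to 153).

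The unigene c118531.graph_c0 was also higher in late ROC22 leaf. In late leaf it had 46.9, 48.5 and 60.4 CPM in ROC22 libraries, against 22.2, 27.5 and 25.8 CPM in GT86-887 libraries, without overlap. In early leaf it had 30.5, 31.3 and 25.3 CPM in ROC22 libraries, against 30.0, 26.0 and 31.4 CPM in GT86-887 libraries, and the genotypes overlapped. The late leaf difference was 0.98 ± 0.20 (log2, edgeR adjusted p = 0.00170) and the early one 0.11 ± 0.20 (adjusted p = 0.720). Between stages it rose in ROC22 leaf by 0.76 ± 0.20 (adjusted p = 0.00951), a call lost without ROC22 early leaf replicate 3 (0.65, adjusted p = 0.0532), and the value in GT86-887 leaf was -0.12 ± 0.20 (adjusted p = 0.715). The genotype by stage value was 0.88 ± 0.28 (adjusted p = 0.166 by edgeR and 0.0434 by DESeq2).

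In middle leaf, c118531.graph_c0 was higher in ROC22 by 0.56 ± 0.20 (edgeR adjusted p = 0.0484), but this call did not hold without the library labelled GT86-887 middle leaf replicate 1 (0.36, adjusted p = 0.169) and was lost in 15 of the 17 other fits without 1 library. In stem it rose between stages in GT86-887 by 0.74 ± 0.22 (adjusted p = 0.0284), and in ROC22 the value was 0.62 ± 0.22 (adjusted p = 0.0563). The GT86-887 stem call was lost without replicate 1 (0.76) or 2 (0.60) of the early and replicate 1 (0.80) or 3 (0.47) of the late stage, with adjusted p from 0.0519 to 0.169. The ROC22 stem value passed in 5 of 18 such fits, among them that without the library labelled GT86-887 middle stem replicate 1 (0.62, adjusted p = 0.0380).

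The unigene c126382.graph_c1 was lower in ROC22 in both tissues. In early leaf it had 4.39, 3.99 and 4.25 CPM in ROC22 libraries, against 19.6, 13.4 and 17.5 CPM in GT86-887 libraries. In late leaf it had 6.46, 6.80 and 6.18 CPM in ROC22 libraries, against 11.7, 14.4 and 13.9 CPM in GT86-887 libraries. In middle leaf it had 5.77, 4.90 and 6.43 CPM in ROC22 libraries, against 4.07, 11.1 and 9.62 CPM in GT86-887 libraries, where the lowest value is that of the library labelled replicate 1. In leaf the genotypes overlapped only at the middle stage, through that library. In middle stem it had 3.999, 4.57 and 5.18 CPM in ROC22 libraries, against 3.24, 11.6 and 9.82 CPM in GT86-887 libraries, and they overlapped there too through the library labelled replicate 1.

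The difference of c126382.graph_c1, ROC22 minus GT86-887, was -1.89 ± 0.28 in early leaf (edgeR adjusted p = 0.000118) and -1.09 ± 0.27 in late leaf (adjusted p = 0.00596). In middle leaf it was -0.62 ± 0.27 (adjusted p = 0.102), and -1.01 ± 0.17 without the library labelled replicate 1 (adjusted p = 0.000183). In early stem it had 4.41, 4.19 and 4.78 CPM in ROC22 libraries, against 14.5, 15.2 and 14.1 CPM in GT86-887 libraries, a difference of -1.60 ± 0.32 (adjusted p = 0.00119). The difference was -0.75 ± 0.31 in middle stem (adjusted p = 0.0900) and -0.65 ± 0.31 in late stem (adjusted p = 0.117). Both passed without the library labelled GT86-887 middle stem replicate 1, at -1.11 (adjusted p = 0.000698) and -0.65 (adjusted p = 0.0118), and the late one also without ROC22 late stem replicate 2 (-0.94, adjusted p = 0.0452). Late minus early in ROC22 was 0.54 ± 0.27 in leaf (adjusted p = 0.157) and 0.64 ± 0.31 in stem (adjusted p = 0.181). Without the library of that tissue labelled GT86-887 middle replicate 1, both passed, at 0.52 in leaf (adjusted p = 0.0144) and 0.64 in stem (adjusted p = 0.0256). Stem minus leaf was -0.26 (adjusted p = 0.0596), and it passed without the library labelled GT86-887 middle leaf replicate 1 (-0.33, adjusted p = 0.00648) and without GT86-887 early leaf replicate 2 (-0.29), GT86-887 middle stem replicate 2 (-0.32) or 3 (-0.29) or ROC22 late stem replicate 2 (-0.32), with adjusted p from 0.0182 to 0.0408 in these 4 fits, and also with RLE factors (-0.31, adjusted p = 0.0278) and with DESeq2 (-0.31, adjusted p = 0.0189). The stem differences were of the same sign as those in leaf. Whether miR528-x plays a part in any of these differences was not tested.

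The unigene c133172.graph_c0 was higher at the late stage in leaf of both genotypes. Its mean level at the early, middle and late stages was 346 ± 31.2, 486 ± 43.0 and 577 ± 56.1 CPM in ROC22 leaf and 271 ± 40.3, 511 ± 131 and 661 ± 41.1 CPM in GT86-887 leaf (SD, n = 3 each). Late minus early was 0.66 ± 0.17 in ROC22 leaf (log2, edgeR adjusted p = 0.00701) and 1.38 ± 0.17 in GT86-887 leaf (adjusted p = 3.53e-05). The genotype by stage value of -0.72 ± 0.23 did not pass (adjusted p = 0.166), nor did it without the library labelled GT86-887 middle leaf replicate 1 (-0.73, adjusted p = 0.0584), but it passed with no filter on low counts (-0.72, adjusted p = 0.0385). In early leaf it had 378, 315 and 344 CPM in ROC22 libraries, against 317, 244 and 251 CPM in GT86-887 libraries, a difference of 0.46 ± 0.16 (adjusted p = 0.0397). That call was lost in 6 of the 18 fits without 1 library, those without ROC22 early 1 (0.40), ROC22 early 3 (0.44), ROC22 middle 2 (0.46), GT86-887 early 2 (0.40), GT86-887 early 3 (0.40) or GT86-887 late 3 (0.45), with adjusted p from 0.0511 to 0.132. In late leaf the difference was -0.26 ± 0.16 (adjusted p = 0.255). Stem minus leaf was -3.15 ± 0.09 (adjusted p = 1.24e-23).

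**Figure D4:**
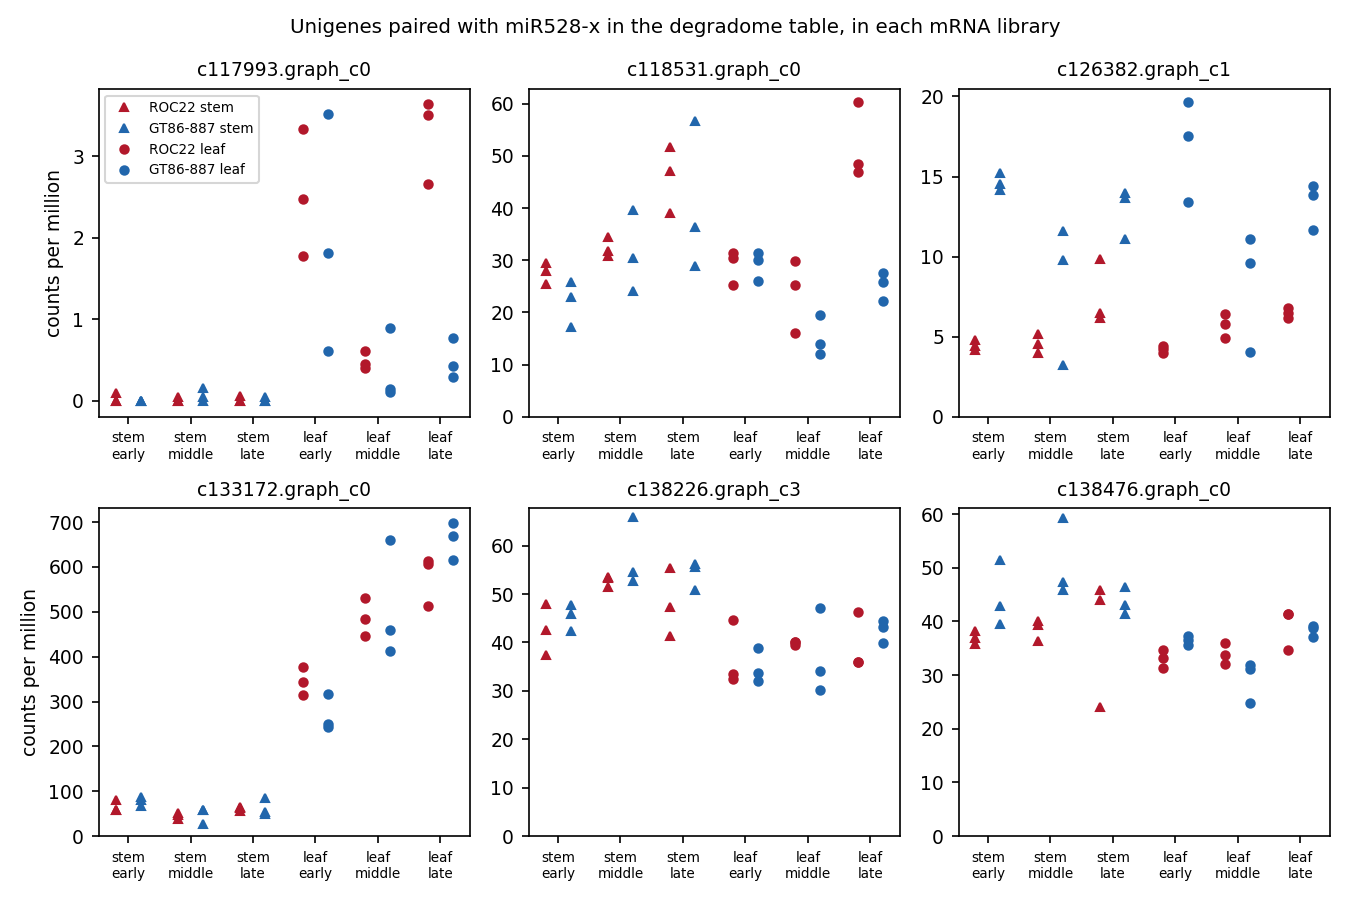
Level of the 6 unigenes paired with miR528-x in each of the 36 mRNA libraries, in CPM on linear axes, with stem (triangles) left of leaf (circles), stages from early to late, and ROC22 (red) left of GT86-887 (blue). In late leaf, c117993.graph_c0 lies at 2.66 to 3.65 CPM in ROC22, above the GT86-887 libraries at 0.287 to 0.771 CPM.

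The 2 remaining unigenes varied little. For c138476.graph_c0, none of 13 comparisons passed in edgeR, with log2 values from -0.33 to 0.16 and a lowest adjusted p of 0.205. For c138226.graph_c3, 1 of 13 passed, stem minus leaf at 0.18 ± 0.06 (adjusted p = 0.0125), and with RLE scaling factors it did not (0.13, adjusted p = 0.0622).

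The counts of paired unigenes that passed are given with the share of all tested unigenes, and their difference was not tested. In leaf, ROC22 against GT86-887, 2 of 6 passed at the early stage (33.8% of all tested unigenes), 1 of 6 at the middle stage (27%) and 3 of 6 at the late stage (30.5%). Late minus early in leaf, 2 of 6 passed in ROC22 (28.3%) and 2 of 6 in GT86-887 (25.3%). Genotype by stage in leaf, 0 of 6 passed in edgeR (0.871%), while 3 had an unadjusted p below 0.05, 1 passed in DESeq2 and 2 passed with no filter on low counts. In stem, 5 of the 6 were tested. There, 1 of 5 passed for ROC22 against GT86-887 at the early stage (37.4%), 0 of 5 at the middle (25.9%) and 0 of 5 at the late stage (32.2%). Late minus early in stem, 0 of 5 passed in ROC22 (18.2%) and 1 of 5 in GT86-887 (15.8%), and genotype by stage 0 of 5 (0.138%). In each of these 4 stem comparisons without a call, 1 unigene had an unadjusted p below 0.05, and DESeq2 called 1 for ROC22 stages and 0 for the others. Stem minus leaf, 3 of 6 passed (74%). Without the library labelled GT86-887 middle replicate 1 of that tissue, 3 of 6 passed for ROC22 leaf stages (35.4% of all), 2 of 5 for ROC22 stem stages (23.5%), and 1 of 5 for the genotypes in middle stem (34.9%) and in late stem (38.2%). Stem minus leaf, 4 of 6 passed without the leaf one (72.2%) and 3 of 6 without the stem one (72%). For genotype by stage the share of unigenes called was higher without them, with 1265 called of 39596 for genotype by stage in leaf (3.19%) and 325 of 37679 in stem (0.863%), and none of the paired unigenes was among them.

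Set beside miR528-x, which was higher in ROC22 at both leaf stages, the genotype difference in late leaf was above 0 and passed for c117993.graph_c0 and c118531.graph_c0, below 0 and passed for c126382.graph_c1, and did not pass for the 3 others. No middle-stage small RNA library was analysed here, and mRNA and small RNA libraries of a group are not stated to come from the same plants, so no correlation between them was computed.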

How the data were processed

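Per the labels' protocols, RNA came from a Trizol extraction, small RNA was size-selected on gels, and the degradome libraries took up RNA with a 5' monophosphate. The authors deposited counts of whole reads per unigene and library with an FPKM value beside each count, per the file headers, and counts per small RNA entry with its sequence. The deposited degradome tags per pair and library are whole numbers, with dashes in the cells where no value is listed. The aligner, assembler and target caller were not given in the sources used here. Another 32 per-library columns (TPM and normalised tags) were not used.

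Counts were tested in edgeR 4.0.16 (R 4.3.3) by the quasi-likelihood test on each whole table, scaled by TMM and filtered by filterByExpr (default settings), with a coefficient for each group and Benjamini-Hochberg adjustment over all features tested and calls at adjusted p below 0.05. Stem and leaf were fitted apart, with 215 and 180 small RNA entries tested, and together for tissue comparisons. Levels (CPM) are counts relative to the library total. SE is the log2 fold change over the square root of F. Strand ratios were tested by permutation in SciPy 1.17.1. Alternatives were DESeq2 1.42.0, other scalings, no filter, a replicate block and each library left out in turn. The scripts were tested on simulated data.

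Named features are both miR528 entries, every unigene paired with them, the 5 entries most correlated with miR528-x over 24 and over 12 leaf libraries, and up to 4 other copper entries by level with those a count turned on. The other copper entry with the highest late leaf difference is named too. Members and lists were chosen with earlier results of these data known. In 4 degradome libraries the title code L stands beside a middle-stage label, so no stage comparison was made there.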

Additional observations from a re-analysis of the deposited data

Results flagged for a closer look

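Each of 4 miR528 results was a difference between groups under the same contrast that passed the test of that difference in edgeR. The late minus early change in leaf differed between ROC22 and GT86-887 by 3.95 on the log2 scale for miR528-x (adjusted p = 0.000184) and by 2.47 for miR528-y (adjusted p = 0.0233). The miR528-y value did not pass in any of the 12 fits without 1 library. The genotype difference of miR528-x in stem minus that in leaf was -2.81 (adjusted p = 0.000643). Its late minus early change in stem minus that in leaf was 2.82 (adjusted p = 0.000847), which did not pass with library totals alone (1.71, adjusted p = 0.110).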

How the results depend on the processing

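Over the alternatives, 404 results of the miR528 entries kept their direction and side of the threshold, 26 fell under it, 8 passed it and 6 changed sign; for the ratio 81 kept both and 1 changed sign, and for the unigene values given above 717 kept both, 22 passed and 33 fell under it. For miR528-x, ROC22 minus GT86-887 in early leaf was 1.48 in 1 fit of both tissues (adjusted p = 0.0833). Late minus early in ROC22 leaf passed with DESeq2 (-1.20), with library totals alone (-1.21, adjusted p = 0.0465) and without a filter on low counts (-1.23, adjusted p = 0.000792). The stage by tissue value was 1.71 with library totals alone (adjusted p = 0.110). Genotype by stage in stem was 0.10 in 1 fit of both tissues, against -0.31. For miR528-y, early leaf was 1.42 in 1 fit of both tissues (adjusted p = 0.0877). Its leaf genotype by stage fell under the threshold with DESeq2 (2.10, adjusted p = 0.0580), RLE factors (2.08, adjusted p = 0.114), library totals alone (2.36, adjusted p = 0.0728), no filter (2.42, adjusted p = 0.0506) and 1 fit of both tissues (2.36, adjusted p = 0.235). The causes were not tested.

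With 1 library left out in turn, the ranges for miR528-x were 1.38 to 2.16 (early leaf, ROC22 minus GT86-887), -1.86 to -0.92 (ROC22 leaf, late minus early), -1.02 to 0.38 (stem, genotype by stage) and -0.96 to 0.58 (GT86-887 stem, late minus early). For miR528-y they were 1.16 to 2.08 (early leaf), 1.45 to 2.70 (leaf, genotype by stage) and -2.99 to -1.39 (genotype by tissue), and for the ratio in stem, late minus early, -0.013 to 0.87. At a minimum of 2 tags, 8 of the 9 combinations of pair and degradome library remained, and at 5 tags 1 did. Within a tissue and assay, same-numbered libraries deviated from their group means with correlations of -0.317 to 0.222 in leaf small RNA. The correlations were -0.434 to 0.172 in stem small RNA, -0.0907 to 0.212 in leaf mRNA and -0.265 to 0.138 in stem mRNA. Such correlations cannot show whether the numbers pair the samples. Pairing across tissues or assays was not examined. With the replicate number as a block, no call of a miR528 entry changed (leaf genotype by stage 3.81 for miR528-x and 2.41 for miR528-y). Of the other copper entries, miR398-x for ROC22 stem stages (-3.97, adjusted p = 0.0590) and miR408-x in early leaf (-1.58, adjusted p = 0.0585) did not pass under the block.

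Counts of all features called moved by over 1.5 times in the following comparisons, with the lowest and highest given after each main count. For small RNA these were 31 (17 to 56) in early leaf and 26 (7 to 48) for ROC22 leaf stages, 11 (6 to 17) for leaf genotype by stage, 29 (22 to 44) for genotype by tissue and 50 (20 to 62) for stage by tissue. In stem they were 38 (25 to 52) and 66 (41 to 105) for the genotypes at the early and late stages, 15 (0 to 75) for ROC22 stages, 0 (0 to 7) for GT86-887 stages and 0 (0 to 68) for genotype by stage. For mRNA they were 328 (103 to 1832) for leaf and 50 (0 to 926) for stem genotype by stage, and 5732 (3604 to 8175) and 6587 (4246 to 8883) for GT86-887 and ROC22 stem stages. Depth limits miR528-y, with 22 counts in 12 stem libraries, and the degradome pairs, with 23 tags in all.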
